A study of Mus musculus with 2 samples.

Results

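Prostaglandins and leukotrienes are lipid mediators made from arachidonic acid, and the 10 genes described here encode the enzymes and receptors of that pathway that are best known from mast cells and group 2 innate lymphoid cells (ILC2s). They were chosen by name, with earlier results of these data known, and all 10 were found among the 32285 genes measured. Alox5, Alox5ap and Ltc4s make the cysteinyl leukotrienes, Ptgs1, Ptgs2 and Hpgds make prostaglandin D2, Hpgd inactivates prostaglandins, and Cysltr1, Ptgdr2 and Ptgir sense leukotrienes, prostaglandin D2 and prostacyclin. Single-cell RNA sequencing was performed on fetal lung cells of wild-type C57BL/6J mice at gestation day 18. The mothers were given drinking water containing 1.3 µg/ml dexamethasone (DEX), a synthetic glucocorticoid, or containing its saline solvent (PBS), starting on gestation day 12. The lungs were pooled by litter into DEX-1 (8 fetuses), DEX-2 (9), PBS-1 (5) and PBS-2 (8), and each litter carried its own hashtag antibody. Cells were sorted as live, CD45-positive, lineage-negative and ST2-positive, so every level below describes sorted cells and not the whole lung, and a pool hides differences between fetuses.

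In this pathway phospholipase releases arachidonic acid from membranes, and 5-lipoxygenase (Alox5), fed by its membrane partner FLAP (Alox5ap), turns it into leukotriene A4. Leukotriene C4 synthase (Ltc4s) then joins glutathione to it, and the product and its derivatives act on the receptor Cysltr1. On the other branch the cyclooxygenases Ptgs1 and Ptgs2 form prostaglandin H2, which the hematopoietic synthase Hpgds turns into prostaglandin D2. Mast cells are a classical source of both mediators. ILC2s, which release type 2 cytokines, are known to be activated by cysteinyl leukotrienes and by prostaglandin D2 through Ptgdr2 (CRTH2), and to be restrained by prostacyclin through Ptgir.

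After filtering, 7268 cells carried 1 hashtag, with 1737 to 1890 cells and 18665955 to 23660294 unique molecular identifiers (UMIs) per litter. The litters were loaded together, in 1 matrix of 10648 barcodes. Cells were clustered without the 10 genes and without the other pathway genes, and clusters were named from marker genes. ILC2-like cells numbered 2078 (28.6%), mast-like cells 2314 (31.8%), basophil-like 487, epithelial-like 449, endothelial-like 281, B-like 199 and mesenchymal-like 197. Although the sort selected CD45-positive cells, epithelial, endothelial and mesenchymal markers defined clusters of their own. Clusters that did not meet every naming limit are called by their leading genes: Gzmb and Scin (422 cells), Higd1b and Gucy1a1 (363), S100a9 and S100a8 (251), and Elane and Prtn3 (227). The Higd1b/Gucy1a1 cluster was deep, with a median of 33166 UMIs against 8025.5 for all singlets. Its mean marker share was 85.7% for endothelial and 78.7% for epithelial markers. Whether its barcodes held more than 1 cell was not tested. Free RNA was widespread, since 70.0 to 85.8% of cells in the non-epithelial named classes and 97.3% of epithelial-like cells held a UMI of Sftpc, which only lung epithelium makes. A low share of cells with a UMI is therefore read beside a class that should lack the gene.

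Levels are UMI counts scaled to a total of 1e+06 (CPM) of the summed cells of a class in a litter, and the mean ± SD is over 4 litters. Values by litter are always given in the order DEX-1, DEX-2 (the DEX pair) and then PBS-1, PBS-2 (the PBS pair). Levels by class are a description without a test, because the classes were built from the same cells. Mast-like and basophil-like cells carried the leukotriene-initiating enzymes, and mast-like cells carried Hpgds. A single unnamed cluster carried most Ltc4s, and ILC2-like cells carried the 3 receptors. The heat map of mean levels shows this division.

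**Figure D1:**
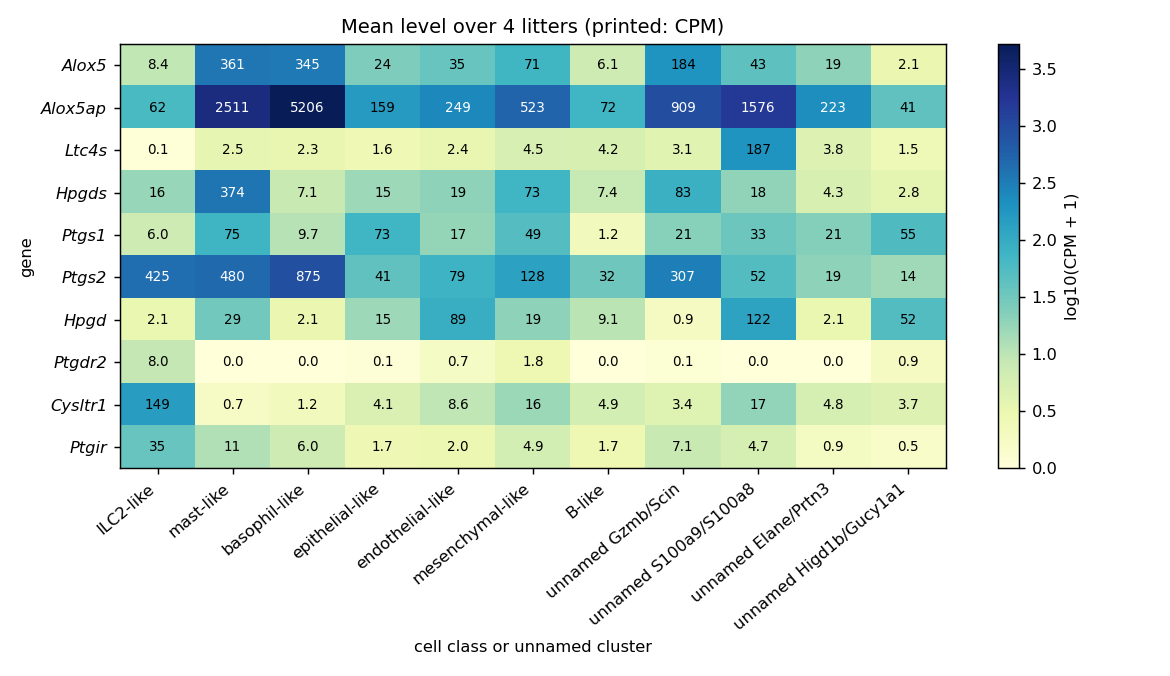
Mean level over 4 litters of each of the 10 genes (rows) in each cell class or unnamed cluster (columns). The colour is log10(CPM + 1) and the printed value is CPM; Hpgds peaks in mast-like cells at 374, Ltc4s in the S100a9/S100a8 cluster at 187 and Cysltr1 in ILC2-like cells at 149.

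Alox5, the enzyme that starts leukotriene synthesis (chromosome 6, 116410077 to 116461178, minus strand, GRCm38), was measured in mast-like cells at 344 and 335 CPM in the DEX pair and 356 and 409 CPM in the PBS pair. Basophil-like cells followed at 328, 336, 342 and 374 CPM in the same order of litters. The litter ranges of these classes overlapped, and both lay above every litter of the Gzmb/Scin cluster (184 ± 25.0 CPM). Mesenchymal-like cells had 70.7 ± 10.9 CPM and ILC2-like cells 8.39 ± 2.45 CPM of Alox5. With another method of calling hashtags, MULTIseqDemux, mesenchymal-like cells had 30.2 ± 9.98 CPM. After each cell was thinned to 2000 UMIs, an Alox5 UMI was present in 48.1% of 2077 mast-like cells (73.0% before thinning) and in 3.59% of 446 epithelial-like cells, which should lack it; median depths before thinning were 6300 and 17521 UMIs. Of 9366 Alox5 UMIs in all singlets, 61.0% lay in mast-like and 15.2% in basophil-like cells.

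Alox5ap (chromosome 5, 149264767 to 149288153, plus strand), which presents arachidonic acid to Alox5, was at its highest in basophil-like cells, with 4469 and 6085 CPM in the DEX pair and 6229 and 4040 CPM in the PBS pair. Mast-like cells were less variable between litters, at 2518, 2375, 2604 and 2547 CPM. The S100a9/S100a8 cluster had 1576 ± 268 CPM and the Gzmb/Scin cluster 909 ± 88.2 CPM, and the litter ranges of these 4 groups did not overlap. ILC2-like cells had 61.7 ± 23.7 CPM of Alox5ap. At 2000 UMIs per cell, 99.6% of basophil-like, 91.5% of mast-like and 88.4% of S100a9/S100a8 cells held an Alox5ap UMI, against 12.8% of epithelial-like cells. Within the mast-like class the subcluster led by Mrgprb1 (197 cells) stood lowest, at 821 ± 160 CPM, against 2403 ± 226 to 2923 ± 343 CPM in the others.

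Ltc4s (chromosome 11, 50236461 to 50238616, minus strand), which commits the pathway to cysteinyl leukotrienes, did not follow Alox5. It reached 213 and 208 CPM in the DEX pair and 151 and 177 CPM in the PBS pair in the S100a9/S100a8 cluster, which held 73.5% of its 554 UMIs. Every other class or cluster lay at or below 4.45 ± 1.57 CPM, the mean of mesenchymal-like cells, and no litter range touched that of the S100a9/S100a8 cluster. In mast-like cells 40 UMIs gave 2.53 ± 0.43 CPM, in basophil-like cells 9 UMIs gave 2.29 ± 1.55 CPM, and ILC2-like cells held 1 UMI. In thinned cells a Ltc4s UMI was found in 26.9% of 242 S100a9/S100a8 cells (60.2% before thinning). The share was 0.530% in mast-like cells and 0.448% in epithelial-like cells (2 of 446), which could not be told apart. Of thinned ILC2-like cells 0 of 2052 held one, which allows a share of up to 0.146%. With MULTIseqDemux the level of Ltc4s was 2.32 ± 0.55 CPM in mast-like and 0.28 ± 0.37 CPM in epithelial-like cells. The S100a9/S100a8 cluster (251 cells, median 7295 UMIs) had 5 of 10 macrophage markers in at least 25% of its cells, with a mean macrophage marker share of 35.2% and a mean neutrophil marker share of 15.5%, and was given no cell type name.

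At a finer resolution that cluster divided into 63 cells led by S100a9, S100a8 and Stfa1 and 188 cells led by Wfdc17, Ear2 and Mcemp1. Ltc4s was 132 ± 24.8 CPM in the former and 202 ± 29.2 CPM in the latter, without overlap of the litters. Most Ltc4s UMIs of the cluster lay in the cells led by Wfdc17 (345), with 62 in those led by S100a9. Hpgd, Alox5ap and Ptgs2 had the opposite order of means: Hpgd was 228 ± 95.4 against 91.8 ± 20.7 CPM, Alox5ap 2266 ± 181 against 1401 ± 270 CPM and Ptgs2 176 ± 97.3 against 16.8 ± 18.0 CPM. The 4 litters contributed 8, 17, 13 and 25 cells to the smaller subcluster, which limits the precision of its levels. In the whole cluster, thinned, 23.1% of cells held both an Alox5ap and a Ltc4s UMI, where the product of the separate shares was 23.8%, and 3.72% held both Alox5 and Ltc4s, where the product was 3.11%.

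Hpgds, the synthase that turns prostaglandin H2 into prostaglandin D2 in blood cells (chromosome 6, 65117293 to 65144908, minus strand), was measured in mast-like cells at 373 and 361 CPM in the DEX pair and 376 and 388 CPM in the PBS pair. These 4 values spanned a narrow range, and mast-like cells held 81.0% of 7312 Hpgds UMIs. The Gzmb/Scin cluster had 83.2 ± 9.09 CPM and mesenchymal-like cells 73.1 ± 25.8 CPM, while basophil-like cells had only 7.13 ± 4.99 CPM. Mesenchymal-like cells also held mast markers, at a mean share of 27.4%, and had 34.2 ± 20.2 CPM of Hpgds with MULTIseqDemux. Whether their Hpgds came from mast cells was not tested. ILC2-like cells had 16.2 ± 4.08 CPM, close to the 14.7 ± 3.46 CPM of epithelial-like cells. With MULTIseqDemux the levels lay apart, at 17.0 ± 4.26 CPM in ILC2-like and 4.80 ± 2.20 CPM in epithelial-like cells. Thinned to 2000 UMIs, 52.6% of mast-like cells held a Hpgds UMI (80.5% before thinning), against 3.95% of ILC2-like and 2.91% of epithelial-like cells. All 4 mast-like subclusters lay between 357 ± 11.1 and 430 ± 39.9 CPM of Hpgds.

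The cyclooxygenases supply that synthase. Ptgs1, the constitutive form (chromosome 2, 36230426 to 36252272, plus strand), was measured in mast-like cells at 62.0 and 81.5 CPM in the DEX pair and 79.1 and 76.0 CPM in the PBS pair. Epithelial-like cells had 87.6, 70.9, 69.6 and 64.6 CPM, the Higd1b/Gucy1a1 cluster 54.9 ± 9.94 CPM and mesenchymal-like cells 49.0 ± 6.75 CPM, and each of these overlapped its neighbour in the order. ILC2-like cells had 5.99 ± 0.70 CPM of Ptgs1, and B-like cells 1 UMI. Thinned, a Ptgs1 UMI was present in 11.8% of mast-like and 12.8% of epithelial-like cells and in 0 of 185 B-like cells, which allows a share of up to 1.62%. Both a Hpgds and a Ptgs1 UMI were found in 5.97% of thinned mast-like cells, where the product of the separate shares was 6.21%.

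Ptgs2, the inducible cyclooxygenase (chromosome 1, 150100031 to 150108227, plus strand), was highest in basophil-like cells at 862 and 739 CPM in the DEX pair and 1109 and 789 CPM in the PBS pair. Mast-like cells varied widely between litters, at 684, 262, 581 and 395 CPM, with a DEX litter at each end. ILC2-like cells had 442, 485, 391 and 379 CPM of Ptgs2, within the mast-like range, and the Gzmb/Scin cluster had 307.3 ± 52.5 CPM. At the same thinned depth 57.3% of basophil-like, 37.0% of ILC2-like and 29.4% of mast-like cells held a Ptgs2 UMI, against 1.08% of B-like cells. A Ptgs1 UMI was present in 1.07% of the same ILC2-like cells.

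Mast-like subclusters fell into a pair with high and a pair with low Ptgs2, with no litter of 1 pair within the range of the other. The subcluster led by Atp8a2 and H19 (233 cells) had 1185 and 545 CPM in the DEX pair and 1404 and 761 CPM in the PBS pair, and that led by Tpsab1 (1023 cells) had 821, 336, 789 and 529 CPM. The subcluster led by Fabp2 and Cma1 (836 cells), with the connective tissue chymase gene Cma1, had 158, 41.8, 138 and 104 CPM, and that led by Mrgprb1 had 48.3, 18.4, 57.0 and 79.5 CPM. DEX-2 was the lowest litter in each of the 4. Ptgs1 had the same leading pair of subclusters, with 121 ± 33.4 CPM for Atp8a2 and 92.1 ± 13.9 CPM for Tpsab1, against 36.3 ± 7.74 CPM for Fabp2 and 26.7 ± 11.3 CPM for Mrgprb1. Within the ILC2-like class 4 subclusters were described. The one led by Gzma and Ccl5 (445 cells) had Gzma, from the natural killer cell list, and no ILC2 marker among its 10 leading genes. It did not meet the naming limits at the finer resolution and stands without a cell type name, although 10 of 12 ILC2 markers were each in at least 25% of its cells. Of these subclusters, the one led by Krt83 and Calca (740 cells) had the highest Ptgs2, at 739, 653, 533 and 502 CPM.

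**Figure D2:**
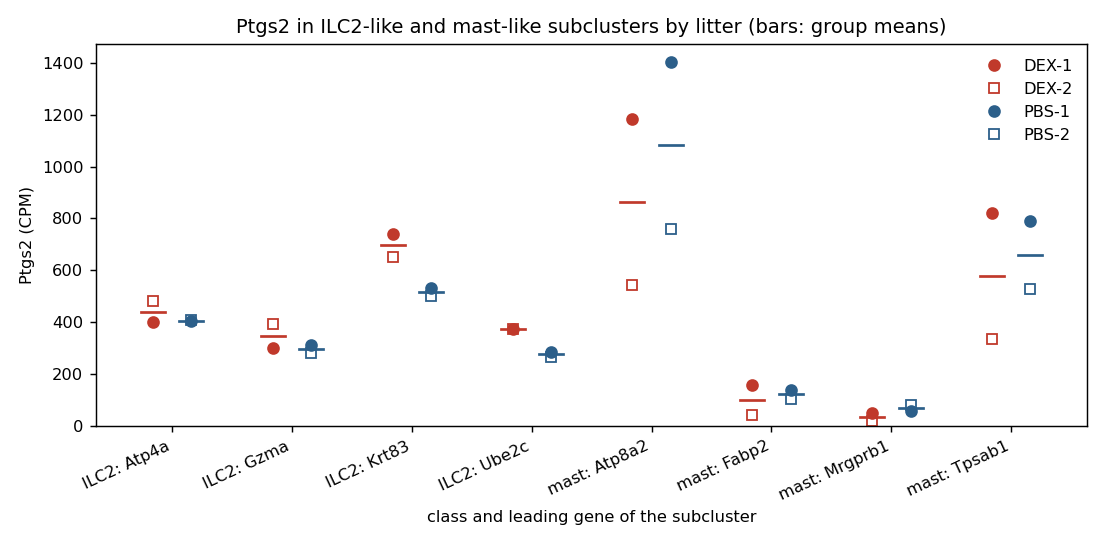
Ptgs2 level (CPM, linear axis from 0) in each subcluster of ILC2-like and mast-like cells, named by its leading gene; each point is 1 litter and each bar the mean of the 2 litters of a group. Mast-like subclusters led by Atp8a2 and Tpsab1 lie at 336 CPM or above in every litter, and those led by Fabp2 and Mrgprb1 at 158 CPM or below.

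Hpgd, the dehydrogenase that inactivates prostaglandins (chromosome 8, 56294585 to 56321043, plus strand), had yet another pattern. The S100a9/S100a8 cluster had 104 and 91.4 CPM in the DEX pair and 139 and 155 CPM in the PBS pair. Endothelial-like cells had 44.3, 67.6, 149 and 94.2 CPM, the Higd1b/Gucy1a1 cluster, which carried endothelial and epithelial markers together, 38.5, 44.9, 48.5 and 75.8 CPM, and mast-like cells 15.8, 12.5, 47.0 and 42.3 CPM. Neighbours in this order overlapped. ILC2-like cells had 2.13 ± 0.54 CPM from 37 UMIs. Thinned to 2000 UMIs, 18.6% of S100a9/S100a8, 17.0% of endothelial-like and 5.10% of mast-like cells held a Hpgd UMI, against 1.62% of B-like cells.

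The receptors lay mainly in ILC2-like cells. Cysltr1, the receptor for cysteinyl leukotrienes (chromosome X, 106574346 to 106603679, minus strand), was measured there at 117 and 108 CPM in the DEX pair and 175 and 198 CPM in the PBS pair, and ILC2-like cells held 91.2% of 2944 UMIs. The next levels were 17.4 ± 7.14 CPM in the S100a9/S100a8 cluster and 15.5 ± 11.1 CPM in mesenchymal-like cells, and mast-like cells had 0.66 ± 0.39 CPM. Thinned to 2000 UMIs, 26.0% of 2052 ILC2-like cells held a Cysltr1 UMI (57.9% before thinning), against 1.35% of epithelial-like cells (4.68% before thinning); median depths were 7186 and 17521 UMIs.

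Ptgdr2, the prostaglandin D2 receptor CRTH2 (chromosome 19, 10937160 to 10942511, plus strand), was sparse. ILC2-like cells had 8.27 and 4.19 CPM in the DEX pair and 9.40 and 10.2 CPM in the PBS pair, and held 145 of the 162 UMIs. Mast-like, basophil-like and B-like cells and the S100a9/S100a8 and Elane/Prtn3 clusters held no Ptgdr2 UMI; 0 of 2314 mast-like cells allows a share of up to 0.130% with a UMI at this depth. Mesenchymal-like cells, with 4 UMIs, reached 4.30 CPM in a single litter, so that the litter ranges of the first and second class overlapped. After thinning, 1.36% of ILC2-like cells held a Ptgdr2 UMI (5.34% before thinning), against 0 of 446 epithelial-like cells, which allows up to 0.673%. Ptgdr, the other prostaglandin D2 receptor, had no UMI in any named class.

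Ptgir, the prostacyclin receptor (chromosome 7, 16906490 to 16910905, plus strand), was measured in ILC2-like cells at 28.0 and 29.9 CPM in the DEX pair and 41.9 and 39.9 CPM in the PBS pair, or 67.7% of 914 UMIs. Mast-like cells had 10.6 ± 0.68 CPM and the Gzmb/Scin cluster 7.12 ± 1.69 CPM, and the litter ranges of these 3 groups did not overlap. Thinned, 6.68% of ILC2-like and 1.49% of mast-like cells held a Ptgir UMI, against 0.541% of B-like cells. In thinned ILC2-like cells 0.390% held both a Ptgdr2 and a Cysltr1 UMI, where the product of the separate shares was 0.355%. Each of the 4 subclusters of ILC2-like cells held all 3 receptors: Cysltr1 ran from 123 ± 20.4 CPM (the unnamed one led by Gzma and Ccl5) to 182 ± 66.4 CPM (led by Krt83 and Calca), Ptgir from 25.2 ± 6.70 to 43.3 ± 7.68 CPM and Ptgdr2 from 7.17 ± 2.81 to 9.80 ± 2.57 CPM.

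By Pearson's r of mean log2(CPM + 1) over the 7 named classes, among 5720 genes, the gene closest to each member reaching 20 CPM was Rab44 for Alox5 (0.993), Lilr4b for Alox5ap (0.998), Tph1 for Hpgds (0.99), Ahnak for Ptgs1 (0.998), Cd200r1 for Ptgs2 (0.993), Dlgap4 for Hpgd (0.961), Sh2d2a for Cysltr1 (0.992) and Dok2 for Ptgir (0.987). The next closest were Slc41a3 and Far2 for Alox5, Emilin2 and Far2 for Alox5ap, Hs6st2 and Hspa13 for Hpgds, Creb3l2 and Dnajb1 for Ptgs1, Spn and Itgb7 for Ptgs2, Taok1 and Ccnd1 for Hpgd, Cxcr6 and S100a4 for Cysltr1 and Pdcd6 and Paxbp1 for Ptgir. These correlations over 7 points come from the same cells and libraries and carry no test.

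Of 54 other genes of the pathway, 10 reached 100 CPM in a named class. Among 12 genes of arachidonate release, Anxa1, which restrains phospholipase and is known as a glucocorticoid target, was 1120 ± 218 CPM in basophil-like cells, and the phospholipase Pla2g12a was 111 ± 13.3 CPM in epithelial-like cells. Among 10 genes of leukotriene handling, Cyp4f18, which oxidises leukotriene B4, was 738 ± 150 CPM in basophil-like cells. Mgst3, a microsomal glutathione transferase, was 204 ± 15.9 CPM in endothelial-like cells and Dpep1, the dipeptidase that converts leukotriene D4, was 171 ± 52.5 CPM in mesenchymal-like cells. Lta4h, which makes leukotriene B4, was 127 ± 5.24 CPM in endothelial-like cells, its highest class. Of 10 prostanoid synthase genes, Ptges3 (277 ± 10.4 CPM) and Akr1b3 (197 ± 13.1 CPM) were highest in ILC2-like cells, and Slco2a1, the prostaglandin uptake transporter, was 187 ± 40.8 CPM in endothelial-like cells. Among 14 other receptors only Ltb4r1, the leukotriene B4 receptor, passed 100 CPM, with 260 ± 98.0 CPM in ILC2-like cells. None of 5 other lipoxygenases did, and 11 of the 54 genes stayed under 1 CPM in every named class.

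The comparison of DEX with PBS litters asks whether a maternal glucocorticoid moved these genes in fetal cells. In ILC2-like cells Cysltr1 fell, and no other member passed the test. After TMM scaling it was 116 and 110 CPM in the DEX pair and 174 and 199 CPM in the PBS pair, so both DEX litters lay below both PBS litters. The log2 fold change was -0.72 ± 0.09 (SE, n = 2 litters per group; edgeR quasi-likelihood test, adjusted p = 0.000516 over all genes). After thinning to 2000 UMIs a Cysltr1 UMI was found in 19.5 and 18.8% of ILC2-like cells in the DEX pair and 31.3 and 33.7% in the PBS pair, the same order. In this fit 261 of 10647 genes were called, 124 higher and 137 lower, which is 2.45%, and 1 of 9 members tested was called. The median log2 fold change was -0.29 over the 9 members and 0.00 over all genes tested.

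Among the 3 subclusters that were also named ILC2-like at the finer resolution, Cysltr1 was lower in both DEX litters in 2. The cells led by Krt83 and Calca had 127 and 124 CPM in DEX against 250 and 228 CPM in PBS, and those led by Atp4a (471 cells) 97.3 and 95.9 against 180 and 243 CPM. In the cycling cells led by Ube2c (391 cells) DEX-1 and PBS-1 were level, at 125.3 and 125.1 CPM, with DEX-2 at 104 and PBS-2 at 173 CPM. The subcluster led by Gzma and Ccl5, which was left unnamed, had 108 and 104 CPM in DEX against 135 and 146 CPM in PBS. With classes named anew at the finer resolution, which leaves these cells out of the ILC2-like class, the log2 fold change of Cysltr1 was -0.77 (edgeR adjusted p = 0.000644).

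Ptgir and Ptgdr2 in ILC2-like cells did not pass. Ptgir was 27.9 and 30.4 CPM in the DEX pair and 41.6 and 40.2 CPM in the PBS pair, a log2 fold change of -0.49 ± 0.13 (edgeR adjusted p = 0.0791). Ptgdr2 was 8.24, 4.27, 9.33 and 10.2 CPM, a log2 fold change of -0.61 ± 0.29 (edgeR adjusted p = 0.413), and its 145 UMIs leave a wide error. From the list of other pathway genes 23 were tested, of which 2 fell and 21 were not called, where 2.45% of all genes were called. Ltb4r1 was 200 and 166 CPM in the DEX pair and 378 and 298 CPM in the PBS pair, a log2 fold change of -0.88 ± 0.11 (edgeR adjusted p = 0.000548). Ptger4, a prostaglandin E2 receptor, was 42.5, 43.5, 58.0 and 60.3 CPM, a log2 fold change of -0.46 ± 0.11 (edgeR adjusted p = 0.0363). The receptors Ltb4r1 and Ptger4 were the called genes of that list, and the other tested receptors of the list were not called and did not share a direction. Cysltr2, a further cysteinyl leukotriene receptor, was 8.03 and 6.67 CPM in the DEX pair and 12.1 and 8.89 CPM in the PBS pair, a log2 fold change of -0.48 ± 0.25 (edgeR adjusted p = 0.490). Ptger2, a prostaglandin E2 receptor, was higher in both DEX litters, at 9.30 and 7.73 against 5.30 and 7.34 CPM, a log2 fold change of 0.42 ± 0.27 (edgeR adjusted p = 0.597). The thromboxane receptor Tbxa2r overlapped between the groups (0.04 ± 0.28 on the log2 scale), and the nuclear receptor Pparg was 65.1 and 65.1 against 56.5 and 64.2 CPM (0.10 ± 0.10). Receptors were not tested as a group. The plot of receptor levels by litter shows all 9 receptors that passed the filter.

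**Figure D3:**
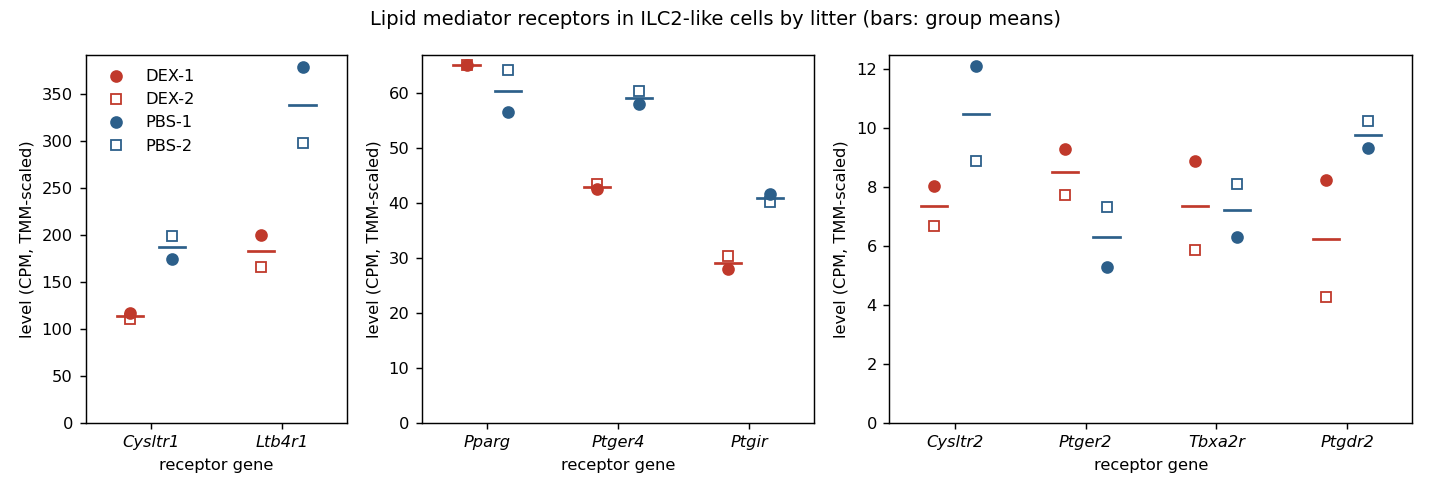
Levels of all 9 lipid mediator receptor genes tested in ILC2-like cells (TMM-scaled CPM, linear axes from 0, a separate range in each panel); each point is 1 litter and each bar the mean of the 2 litters of a group. Both DEX litters lie below both PBS litters for Cysltr1 (110 to 116 against 174 to 199 CPM) and for Ltb4r1 (166 to 200 against 298 to 378 CPM); for Ptger2 and Pparg both DEX litters are the higher ones.

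Of the enzymes in ILC2-like cells, Alox5ap was 28.7 and 62.1 CPM in the DEX pair and 73.2 and 83.9 CPM in the PBS pair. Its log2 fold change of -0.83 ± 0.22 missed the threshold (edgeR adjusted p = 0.0705), with DEX-1 lying far below the other litters. Without DEX-1 the log2 fold change was -0.34 (edgeR adjusted p = 0.229), and it passed at -1.46 without DEX-2, at -0.92 without PBS-1 and at -0.73 without PBS-2. Thinned, an Alox5ap UMI was found in 3.82, 5.09, 12.0 and 11.5% of ILC2-like cells in the same order of litters, all below the 12.8% of epithelial-like cells. That benchmark depended on the hashtag method. With MULTIseqDemux the level of Alox5ap was 67.7 ± 25.1 CPM in ILC2-like and 46.1 ± 26.9 CPM in epithelial-like cells, with overlapping litter ranges. Ptgs2 was 441, 494, 389 and 382 CPM, a log2 fold change of 0.28 ± 0.08 that did not pass (edgeR adjusted p = 0.0791). It passed at 0.36 without DEX-1 (edgeR adjusted p = 0.0347), and also with no filter on low counts (0.0136) and with a replicate block (0.0165). Alox5 (-0.29 ± 0.30), Hpgds (-0.23 ± 0.24), Ptgs1 (-0.24 ± 0.28) and Hpgd (0.49 ± 0.49) had log2 fold changes within about 1 SE of 0, with edgeR adjusted p from 0.780 to 0.821, and Ltc4s was below the filter on low counts. Anxa1, from the list of other pathway genes, was 30.2, 24.8, 49.7 and 36.7 CPM, a log2 fold change of -0.63 ± 0.17 (edgeR adjusted p = 0.0707).

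Markers of other cell types also differed within ILC2-like cells. ILC2 markers (12 of 12 with a UMI) summed to 4282 to 4535 CPM in DEX and 4404 to 4752 CPM in PBS litters, which overlapped, as did mast markers (10 of 11, 406 to 541 against 408 to 409 CPM). Epithelial markers (12 of 12) were 313 to 322 CPM in DEX and 357 to 412 CPM in PBS litters. Endothelial markers (9 of 9) were 57.1 to 61.8 against 44.9 to 46.4 CPM, and mesenchymal markers (8 of 9, with Lum at 0) 41.6 to 43.5 against 27.1 to 27.7 CPM. Macrophage markers (9 of 10, with Marco at 0) were 17.4 to 19.1 against 10.7 to 11.2 CPM, and eosinophil markers (3 of 8, with Prg2, Epx, Ear1, Ear2 and Ear6 at 0) 0.64 to 1.05 CPM against 0. Their part in the receptor results was not tested; outside ILC2-like cells the highest mean of Cysltr1 was 17.4 CPM, in the S100a9/S100a8 cluster, and that of mesenchymal-like cells was 15.5 CPM.

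In mast-like cells the synthetic enzymes did not differ detectably between the groups, and Hpgd fell. Hpgd was 15.9 and 12.5 CPM in the DEX pair and 46.3 and 42.9 CPM in the PBS pair, from 62, 55, 165 and 169 UMIs. Both DEX litters lay below both PBS litters, with a log2 fold change of -1.65 ± 0.17 (SE, n = 2 litters per group; edgeR adjusted p = 0.0410). It was the single gene called among 10471 tested, or 0.00955%, and 1 of the 8 members tested; the median log2 fold change was -0.06 over these members and 0.00 over all genes. The call was lost without PBS-1, where the log2 fold change was -1.58 (edgeR adjusted p = 0.246), and with litters called by MULTIseqDemux, at -1.56 (edgeR adjusted p = 0.0787); over all alternatives the adjusted p ran from 6.46e-17 to 0.246. Thinned to 2000 UMIs, a Hpgd UMI was found in 3.44 and 3.45% of mast-like cells in the DEX pair and 7.23 and 6.41% in the PBS pair, against 1.62% of B-like cells.

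All 4 mast-like subclusters had both DEX litters below both PBS litters for Hpgd. The Tpsab1 cells had 8.56 and 6.82 CPM in DEX against 34.2 and 38.5 CPM in PBS, and the Fabp2 cells 37.1 and 30.3 against 90.0 and 59.1 CPM. The Mrgprb1 cells had 40.7 and 13.8 against 53.3 and 61.5 CPM, and the Atp8a2 cells, with 15 UMIs in all, 4.13 and 6.08 against 16.1 and 8.5 CPM.

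**Figure D4:**
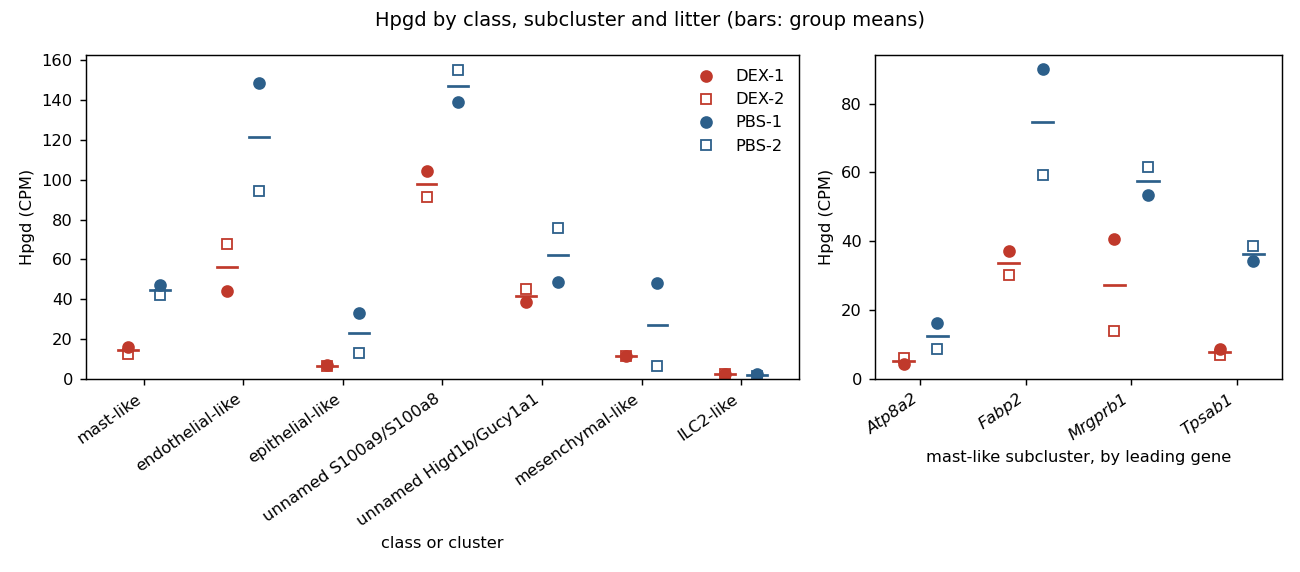
Hpgd level (CPM, linear axes from 0) by litter in classes and unnamed clusters (left) and in mast-like subclusters (right); each point is 1 litter and each bar the mean of the 2 litters of a group. DEX litters lie below PBS litters in mast-like (12.5 to 15.8 against 42.3 to 47.0), endothelial-like and epithelial-like cells, and the groups overlap in mesenchymal-like cells.

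Markers of other cell types were present within the mast-like sums. Macrophage markers (9 of 10 with a UMI, Marco at 0) summed to 333 to 336 CPM in DEX and 345 to 360 CPM in PBS litters, and neutrophil markers (6 of 10, with Ly6g, Retnlg, Csf3r and Camp at 0) to 2.94 to 3.06 against 3.13 to 3.25 CPM. Mesenchymal markers (7 of 9, with Dcn and Lum at 0) were higher in DEX litters, at 17.9 to 18.4 against 14.5 to 16.3 CPM, as were pericyte markers (8 of 9, with Kcnj8 at 0), at 18.6 to 19.9 against 14.8 to 18.0 CPM. Basophil markers (9 of 9) were 1217 to 1358 CPM in DEX and 1442 to 1483 CPM in PBS litters, and natural killer cell markers (3 of 8, with Ncr1, Klrb1c, Eomes, Klra8 and Klra4 at 0) 21.2 to 23.8 against 26.2 to 29.3 CPM. Endothelial markers (9 of 9) overlapped, at 42.8 to 56.1 against 42.1 to 50 CPM. Erythroid markers (7 of 7) summed to 12.5 to 14.5 CPM except in PBS-1, where they reached 234 CPM. The part of these cells in the Hpgd result was not tested.

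The promoter of Hpgd is shown because Hpgd was the member called in mast-like cells and over all singlets. It spans chr8:56294302-56294601 on the plus strand (RefSeq, GRCm38.p6), 250 bases before to 50 after the RefSeq start, and capitals mark a TATAAA match at 56294556 to 56294561. The match begins 4 bases after the RefSeq start and 29 bases before the GENCODE gene start. Which start is used was not tested.
Hpgd promoter: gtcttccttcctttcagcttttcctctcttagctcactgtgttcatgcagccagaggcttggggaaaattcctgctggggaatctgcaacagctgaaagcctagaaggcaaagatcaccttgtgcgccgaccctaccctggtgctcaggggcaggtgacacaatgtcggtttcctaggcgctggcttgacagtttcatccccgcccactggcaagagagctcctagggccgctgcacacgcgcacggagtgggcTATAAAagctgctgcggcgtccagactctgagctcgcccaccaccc
TATAAA on the strand of the gene was found in 8.32% of 32851 RefSeq promoters of the same length, and in 1 of the 8 members with a promoter sequence. The hexamer AGAACA, which is 1 arm of the palindrome that the glucocorticoid receptor binds, or its reverse complement TGTTCT was found in 19.0% of all promoters and in that of Ptgs1 alone among the 8, and not in that of Hpgd. A match is a string of letters and not a binding site, and no match covers only these 300 bases.

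The other mast-like members gave small differences. Alox5 was 347 and 337 CPM in the DEX pair and 351 and 416 CPM in the PBS pair, a log2 fold change of -0.17 ± 0.12 (edgeR adjusted p = 0.963). Hpgds differed by -0.05 ± 0.11, Alox5ap by -0.07 ± 0.10, Ptgs1 by -0.10 ± 0.15, Ptgs2 by -0.03 ± 0.35, Ltc4s by 0.29 ± 0.46 and Ptgir by 0.01 ± 0.23 on the log2 scale, each with an edgeR adjusted p of 0.999. The error was small for Hpgds and wide for Ptgs2, whose litters spread within both groups. Ptgdr2 and Cysltr1 were below the filter. None of 22 other pathway genes tested was called in mast-like cells; 2 had an unadjusted p under 0.05, and DESeq2 called 7 genes in all. The plot of log2 fold changes sets both classes side by side.

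**Figure D5:**
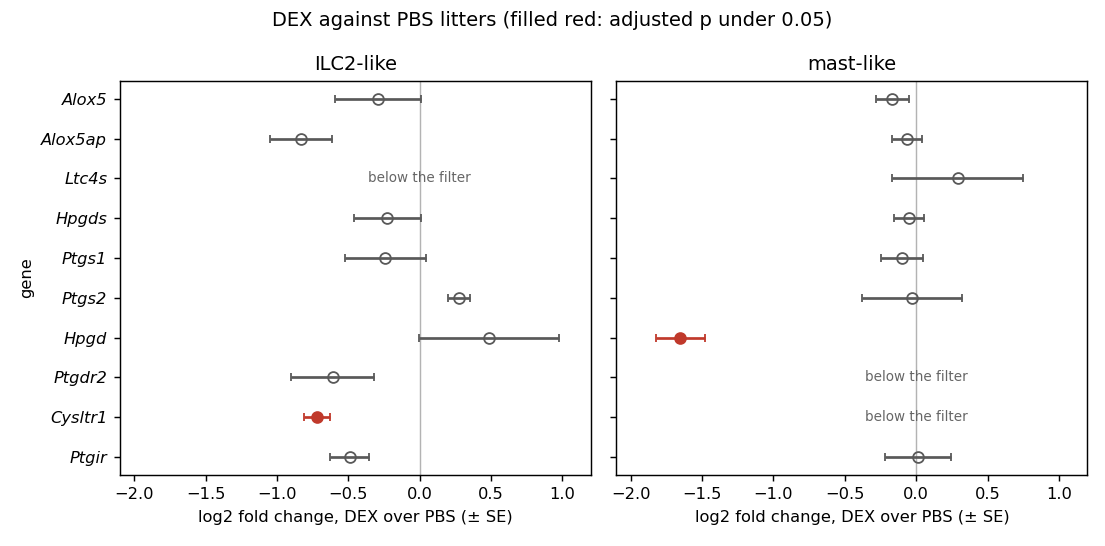
Log2 fold change of DEX over PBS litters (point) with its SE (bar) for each of the 10 genes in ILC2-like (left) and mast-like (right) cells; filled points passed an adjusted p under 0.05. Cysltr1 at -0.72 in ILC2-like cells and Hpgd at -1.65 in mast-like cells are the filled points.

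The difference between the classes was tested with a class by treatment interaction, with litter as a term. For Hpgd the mast-like effect was lower than the ILC2-like effect by 2.11 ± 0.48 on the log2 scale (edgeR adjusted p = 0.156), and 21 of 11546 genes passed. Alox5ap differed by 0.79 ± 0.25 (edgeR adjusted p = 0.479) and Ptgir by 0.51 ± 0.26 (edgeR adjusted p = 0.889). No member was therefore shown to respond differently in the classes; for Cysltr1 and Ptgdr2 the term could not be estimated, since mast-like cells held almost none of their UMIs.

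Sums over all singlets were tested because an earlier report of these data had named Hpgd in them, so its call there is not independent. Mast-like cells are part of these singlets and held 451 of the 2115 Hpgd UMIs, so the mast-like call of Hpgd is not independent of that report either. Over all singlets Hpgd was 13.3 and 14.1 CPM in the DEX pair and 34.0 and 39.0 CPM in the PBS pair. The log2 fold change was -1.41 ± 0.10 (edgeR adjusted p = 0.0286), and 3 of 15501 genes were called (0.0194%), with 1 of 10 members among them; the members' median was -0.13, against 0.00 over all genes. In such sums a lower share of Hpgd-carrying cells and less Hpgd RNA per cell cannot be told apart. Endothelial markers (9 of 9) summed to 863 to 898 CPM in DEX and 1297 to 1546 CPM in PBS litters, macrophage markers (10 of 10) to 490 to 721 against 836 to 1016 CPM and neutrophil markers (10 of 10) to 140 to 151 against 226 to 327 CPM. Mast markers (10 of 11) were 15469 to 17204 CPM in DEX and 14510 to 14565 CPM in PBS litters, natural killer cell markers (6 of 8, with Klra8 and Klra4 at 0) 142 to 153 against 94.1 to 117 CPM, cardiac muscle markers (6 of 7, with Nppa at 0) 11.8 to 13.4 against 53.9 to 80.0 CPM, and B cell markers (10 of 10) 163 to 172 against 177 to 188 CPM. Of 2115 Hpgd UMIs, 35.5% lay in the Higd1b/Gucy1a1 cluster, 144 of whose 363 cells came from PBS-2, 21.3% in mast-like cells, 17.0% in endothelial-like cells and 13.9% in the S100a9/S100a8 cluster. With each named class or unnamed cluster left out in turn, the log2 fold change stayed between -1.49 and -1.36. The lowest of these values was that without the Higd1b/Gucy1a1 cluster, where Hpgd was 10.3 and 10.5 CPM in the DEX pair and 31.9 and 26.6 CPM in the PBS pair and the call was lost (edgeR adjusted p = 0.190). Without the S100a9/S100a8 cluster it was -1.42 (edgeR adjusted p = 0.0136). The call was also lost without the Gzmb/Scin cluster (edgeR adjusted p = 0.0567), mast-like (edgeR adjusted p = 0.0774), endothelial-like (0.137), epithelial-like (0.179) or mesenchymal-like cells (0.0584), and also without DEX-1 (0.161), DEX-2 (0.0826) or PBS-2 (0.0723); over all alternatives the adjusted p ran from 7.65e-14 to 0.650. No other pathway gene of 42 tested was called over all singlets; 9 had an unadjusted p under 0.05, and DESeq2 called 260 genes in all.

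In the smaller classes no member was called. Endothelial-like Hpgd was 45.3 and 70.4 CPM in the DEX pair and 147 and 97.1 CPM in the PBS pair, a log2 fold change of -1.08 ± 0.29 (edgeR adjusted p = 0.996). Epithelial-like Hpgd was 7.0, 6.35, 32.8 and 12.6 CPM, a log2 fold change of -1.76 ± 0.46 (edgeR adjusted p = 0.784). Without PBS-2 both passed, at -1.34 in endothelial-like and -2.30 in epithelial-like cells. Ptgs1 in epithelial-like cells was 88.9, 73.7, 69.4 and 63.3 CPM, a log2 fold change of 0.29 ± 0.14 (edgeR adjusted p = 0.846). In the S100a9/S100a8 cluster, which was not fitted, Hpgd was lower and Ltc4s higher in both DEX litters, by the levels given above. In its larger subcluster, led by Wfdc17, the groups overlapped for Hpgd. There Hpgd was 102 and 61.6 CPM in the DEX pair and 95.7 and 108 CPM in the PBS pair. The smaller subcluster, led by S100a9, had 116 and 185 against 291 and 322 CPM, with 4 and 23 UMIs in the DEX pair.

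The background in these classes was near 0 calls. In endothelial-like cells edgeR called 0 of 8782 genes (0%), 340 had an unadjusted p under 0.05 and DESeq2 called 1; of 6 members, Hpgd had an unadjusted p under 0.05. In epithelial-like cells edgeR called 1 of 10924 genes (0.00915%), 654 had an unadjusted p under 0.05 and DESeq2 called 5; of 7 members, Hpgd and Cysltr1 had an unadjusted p under 0.05, the latter at 3.50 and 0.71 CPM in the DEX pair and 7.15 and 5.11 CPM in the PBS pair. In mesenchymal-like cells edgeR called 0 of 7396 genes (0%), 295 had an unadjusted p under 0.05 and DESeq2 called 0. Of its 6 members, Ptgs2, at 192, 136, 113 and 95.3 CPM, and Cysltr1, at 8.74, 5.16, 30.7 and 20.4 CPM, had an unadjusted p under 0.05. In basophil-like cells edgeR called 0 of 7394 genes (0%), 100 had an unadjusted p under 0.05 and DESeq2 called 0; none of 4 members did. B-like cells had no member above the filter, with 7 of 3294 genes called (0.213%). No other pathway gene was called in these classes, of 4 to 26 tested, of which 0 to 6 had an unadjusted p under 0.05.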

How the data were processed

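Single-cell RNA sequencing (10x Genomics 5′ v2) and hashtag reads of 4 fetal lung litters from 4 mothers, 2 per treatment, were analysed as deposited. The authors made the matrix with Cell Ranger multi (7.0.0 per the file header) and deposited unnormalised UMI counts for each gene in each barcode. The submitters' processing notes name mm10. The aligner's settings were not given in the sources used here. Barcodes with at least 200 genes and at most 5% mitochondrial UMIs (10409 of 10648) were kept. Hashtags were assigned by HTODemux (Seurat 5.3.0, positive quantile 0.99), which left 7268 singlets, 736 doublets and 2405 barcodes with no hashtag. Doublets within a litter were not removed. The study's methods and the labels give more mothers than 1 of its figure legends does for this experiment, and the labels were followed.

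Cells were normalised to 10000 UMIs and clustered with scanpy 1.11.5 (2000 variable genes, 20 components, 15 neighbours, Leiden resolution 0.5; subclusters at 1), without the 10 genes and 54 other pathway genes. A cluster took the name of 1 of 15 cell types when at least 3 markers were each in 25% of cells, the mean marker share was at least 30%, the next type was at most at 60% of the best, and no other type had more markers among the 10 leading genes; these limits were chosen with the clusters in view. The authors' annotation was not used here, so class names are rebuilt and can differ from those of the study.

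For each class with at least 20 cells in every litter, UMIs were added up by litter and compared by edgeR 4.0.16 (quasi-likelihood test, TMM, filterByExpr, two-sided). A call needed a p under 0.05 after Benjamini-Hochberg adjustment over all genes tested. The SE is the log2 fold change divided by the root of its F statistic. On simulated counts, 88.5% (ILC2-like, 10647 genes) and 88.7% (mast-like, 10471 genes) of changes of 1 on the log2 scale were recovered, and 100% of changes of 2. In the simulation every gene had the same fixed spread between litters, and changes were set only in genes with many UMIs. These shares are therefore not the power of the real comparison, where the spread differed between genes. Shares of cells were thinned to 2000 UMIs per cell, which left out 26 ILC2-like and 237 mast-like cells; limits for a count of 0 use 3 counts and cover counting error only. All litters shared 1 loading. Genes outside the 10 were named when called, or when they reached 100 CPM in a named class (at most 4 per role). For each member reaching 20 CPM, the 3 genes closest in class profile were named, among genes reaching 50 CPM. The members and lists were chosen with earlier results of these data known. Positions are from GENCODE M21 (GRCm38), and promoters of 8 members came from RefSeq (GRCm38.p6). Alternatives were RLE scaling, DESeq2 1.42.0, no filter, thinned counts, other limits for clusters and mitochondrial UMIs, MULTIseqDemux, leaving out each litter, and a replicate block. Those added after seeing the data were the finer resolution and the mitochondrial limit in the tests, MULTIseqDemux and left-out litters for levels, and leaving out each class or unnamed cluster from the sums over all singlets. The summed B cell markers in ILC2-like cells are not reported here.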

Additional observations from a re-analysis of the deposited data

Results flagged for a closer look

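In 3 cases, apart from ILC2-like against mast-like cells, both DEX litters were higher than both PBS litters in 1 class and lower in another. The same count was not made over all genes, so these cases are not shown to be unusual. None of these differences was tested. Ptgs1 had a log2 fold change of 0.29 in epithelial-like cells and of -0.24 in ILC2-like cells, a difference of 0.53. Hpgd had a log2 fold change of 0.49 in ILC2-like cells, from 37 UMIs, against -1.08 in endothelial-like cells, a difference of 1.57, and against -1.76 in epithelial-like cells, a difference of 2.24. None of these 5 log2 fold changes passed the edgeR test in its own class.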

How the results depend on the processing

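The fall of Cysltr1 in ILC2-like cells was called under every alternative run, with log2 fold changes from -0.87 to -0.63. Hpgd kept its direction in mast-like cells and over all singlets under every alternative. It lost its call with MULTIseqDemux (-1.56 in mast-like cells, -1.38 over all singlets). Leaving out each litter gave -1.83 to -1.47 in mast-like cells and -1.50 to -1.31 over all singlets. Of 246 alternative log2 fold changes, 215 kept their direction and side of the threshold. Members called in ILC2-like cells, 1 as reported, numbered 4 with no filter on low counts, 3 with a replicate block, 2 with MULTIseqDemux and 2 with thinned counts. Calls over all genes moved as well, from 261 as reported to 531 with no filter and 89 with thinned counts. The member counts are therefore not read as a result about the members.

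Members called in other classes also moved, as did the counts of all genes called, which are given below. With no filter they numbered 2 in B-like cells, 1 in epithelial-like cells and 2 over all singlets, with DESeq2 2 over all singlets, and with MULTIseqDemux 0 in mast-like cells and 0 over all singlets. Without 1 litter they ranged from 0 to 2 in B-like (2 without DEX-1), 0 to 4 in endothelial-like (4 without PBS-2, 1 without PBS-1), 0 to 1 in epithelial-like (1 without PBS-2) and 0 to 1 in mast-like cells (0 without PBS-1), and from 0 to 1 over all singlets (1 without PBS-1). Alox5ap in ILC2-like cells passed with no filter, with the block, with MULTIseqDemux, with thinned counts, and without DEX-2, PBS-1 or PBS-2. Ptgs2 there passed with no filter, with the block and without DEX-1, and Ptgir with no filter.

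Log2 fold changes that were not called and changed sign were mast-like Ptgs2 (0.000526 with MULTIseqDemux, -0.88 to 0.51 without 1 litter), mast-like Ptgir (-0.80 with thinned counts, -0.0701 to 0.11), mast-like Ptgs1 (-0.30 to 0.0818), and ILC2-like Alox5 (-0.65 to 0.15) and Hpgds (-0.54 to 0.0729). Alternatives for levels were compared for each member in its highest named class. Those that moved by more than 1 SD were Ltc4s in mesenchymal-like cells (2.74 CPM with MULTIseqDemux) and, as a mean over cells, Hpgds (391 CPM) and Ptgs1 (64.1 CPM) in mast-like and Ptgs2 (1072 CPM) in basophil-like cells. The cause was not tested.

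Counts of all genes called depended more on the setting. In ILC2-like cells 261 became 531 with no filter, 120 with DESeq2, 89 with thinned counts, 156 without the cycling cells, 426 with the block and 305 to 428 without 1 litter (428 without PBS-2). In mast-like cells 1 became 171 with no filter, 7 with DESeq2, 7 with thinned counts, 0 with MULTIseqDemux, 238 with the block and 0 to 18 without 1 litter (18 without DEX-2). Over all singlets 3 became 881 with no filter, 260 with DESeq2, 0 with MULTIseqDemux, 279 with the block and 0 to 96 without 1 litter (96 without PBS-1). In the smaller classes, the counts with no filter were 91 (B-like), 19 (basophil-like), 14 (endothelial-like), 143 (epithelial-like) and 90 (mesenchymal-like), and without 1 litter they reached 78 (without DEX-2), 24 (DEX-2), 166 (PBS-1), 29 (DEX-1) and 180 (PBS-1).

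Replicate numbers are shared between groups, but the litters came from different mothers. Deviations of same-numbered litters correlated at 0.0768 in ILC2-like and 0.127 in mast-like cells, so the block rests on numbers alone. Depth limits Ptgdr2 (145 UMIs in ILC2-like cells) and Ltc4s (40 UMIs in mast-like cells), and 2 litters per group limit every comparison.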
